A study of Mus musculus with 4 samples.

Results

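Activated myoblasts rich in transcripts of S phase, when DNA is copied, were compared with activated myoblasts rich in transcripts of mitosis. The members were chosen by measured values. In each of the 2 activated libraries taken on its own, cells with 5000 or more UMIs (unique molecular identifiers, 1 per captured transcript) and at most 10% mitochondrially encoded UMIs were scored. The S score was the UMIs of Mcm3, Mcm5, Mcm6, Pcna, Gins2 and Slbp per 10000 UMIs of the cell, and the M score was those of Ube2c, Ccnb1, Cenpf, Plk1, Cdc20 and Aurka. S cells were at or above the upper quartile of the S score and below the median of the M score, and M cells were the reverse. This gave 1039 S and 1020 M cells among 5844 eligible cells of activated EOM, and 775 S and 738 M cells among 4428 of activated TA, or 3572 of the 23170 barcodes of the series. Cells below both medians (1257 in EOM, 1001 in TA) were kept as a further group.

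The study profiled muscle stem cells of Tg:Pax7-nGFP mice aged 2 to 4 months, which carry a nuclear green fluorescent protein under Pax7 control and were sorted on that fluorescence. EOM are the extraocular muscles that move the eye, and TA is the tibialis anterior, a limb muscle of the shin. Quiescent cells went straight to sequencing, and activated cells were first grown for 4 days on Matrigel at 3% oxygen. There was 1 library per muscle and state, polyadenylated RNA was captured on the 10x Genomics platform, and the number of animals behind each library is not given in the sources used here. Both activated groups therefore share the transgene, the sort and the culture, and differ in the muscle of origin.

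A dividing cell licenses its replication origins, then copies its DNA in S phase, checks it in G2 and separates the copies in mitosis. E2F factors switch on the genes of DNA synthesis as a cell enters S phase. A later wave of transcription acts through the DREAM and MMB complexes and FOXM1 on promoter elements named CHR, often found beside CCAAT elements. It supplies the kinases, motors and kinetochore proteins of mitosis. Myoblasts leave this cycle for good when they differentiate: MYOD1 and MYOG turn on muscle genes while CDK inhibitors such as p21 hold the cell cycle engine.

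The promoters of 8 genes are shown so that these elements can be seen beside the genes. They belong to the 4 marker genes of the rule and to the genes reaching 50 CPM (UMIs per 1000000) with the largest ratio on each side and a promoter in the table. Each is the 250 bases before the RefSeq transcription start (GRCm38.p6), read 5′ to 3′ on the gene's strand. Capitals mark matches on either strand to the CHR word TTTGAA, to the CCAAT word, to the E-box word CAGCTG that MYOD1 and MYOG read, or to one of 8 E2F words. The E2F words were TTTCCCGC, TTTGGCGC, TTTCGCGC, TTTGCCGC, TTCCCGCC, TTGGCGCC, TTCGCGCC and TTGCCGCC, and neighbouring ones overlap each other. Pcna (chr2:132253181-132253430, minus strand), Mcm5 (chr8:75109259-75109508, plus), Ung (chr5:114130185-114130434, plus) and Hells (chr19:38930740-38930989, plus) were S-side genes. Ube2c (chr2:164769679-164769928, plus), Plk1 (chr7:122159185-122159434, plus), Myl1 (chr1:66945057-66945306, minus) and Actc1 (chr2:114052876-114053125, minus) were M-side genes.
Pcna: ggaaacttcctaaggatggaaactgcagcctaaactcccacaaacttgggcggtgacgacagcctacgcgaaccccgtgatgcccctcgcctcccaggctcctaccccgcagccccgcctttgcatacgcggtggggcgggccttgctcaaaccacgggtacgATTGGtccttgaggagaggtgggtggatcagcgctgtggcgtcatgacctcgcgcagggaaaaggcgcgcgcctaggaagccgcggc
Mcm5: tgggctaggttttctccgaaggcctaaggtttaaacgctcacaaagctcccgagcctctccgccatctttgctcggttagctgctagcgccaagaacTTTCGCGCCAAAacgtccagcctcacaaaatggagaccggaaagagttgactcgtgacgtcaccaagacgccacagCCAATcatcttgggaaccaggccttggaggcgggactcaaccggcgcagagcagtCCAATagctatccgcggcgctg
Ung: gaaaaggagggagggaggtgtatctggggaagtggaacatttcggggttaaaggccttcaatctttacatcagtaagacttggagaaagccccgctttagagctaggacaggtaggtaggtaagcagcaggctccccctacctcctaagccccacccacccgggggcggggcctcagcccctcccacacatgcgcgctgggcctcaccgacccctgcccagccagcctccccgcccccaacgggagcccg
Hells: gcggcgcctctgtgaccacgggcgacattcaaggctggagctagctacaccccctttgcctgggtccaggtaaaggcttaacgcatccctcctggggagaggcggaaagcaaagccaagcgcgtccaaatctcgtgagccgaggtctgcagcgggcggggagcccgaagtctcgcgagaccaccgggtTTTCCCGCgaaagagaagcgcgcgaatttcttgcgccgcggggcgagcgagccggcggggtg
Ube2c: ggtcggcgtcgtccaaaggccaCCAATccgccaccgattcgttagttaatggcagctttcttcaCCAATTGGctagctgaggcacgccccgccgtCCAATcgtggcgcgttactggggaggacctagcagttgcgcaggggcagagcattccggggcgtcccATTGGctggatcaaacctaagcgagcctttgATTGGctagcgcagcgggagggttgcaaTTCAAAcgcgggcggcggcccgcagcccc
Plk1: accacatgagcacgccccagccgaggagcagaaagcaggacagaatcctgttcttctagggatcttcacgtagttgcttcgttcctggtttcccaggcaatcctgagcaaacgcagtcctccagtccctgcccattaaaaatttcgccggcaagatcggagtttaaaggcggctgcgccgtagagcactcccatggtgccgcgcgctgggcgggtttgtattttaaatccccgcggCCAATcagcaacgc
Myl1: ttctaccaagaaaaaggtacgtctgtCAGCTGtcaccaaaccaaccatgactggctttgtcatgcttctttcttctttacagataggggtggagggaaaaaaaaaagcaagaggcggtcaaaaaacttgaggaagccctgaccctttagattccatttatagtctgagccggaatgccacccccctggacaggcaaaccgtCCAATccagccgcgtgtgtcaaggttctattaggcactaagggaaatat
Actc1: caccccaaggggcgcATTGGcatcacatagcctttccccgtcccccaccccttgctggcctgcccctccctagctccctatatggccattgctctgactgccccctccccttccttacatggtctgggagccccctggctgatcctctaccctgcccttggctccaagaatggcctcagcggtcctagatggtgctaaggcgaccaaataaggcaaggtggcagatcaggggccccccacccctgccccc
The Ube2c window held a CHR word 29 bases before the start and 6 CCAAT words. In Mcm5, an overlapping run of 3 E2F words began 153 bases before the start, and Hells held 1 E2F word at 62 bases. Myl1 held the only E-box word of the 8 windows, 224 bases before the start. In Ung none of these words was found.

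**Figure D1:**
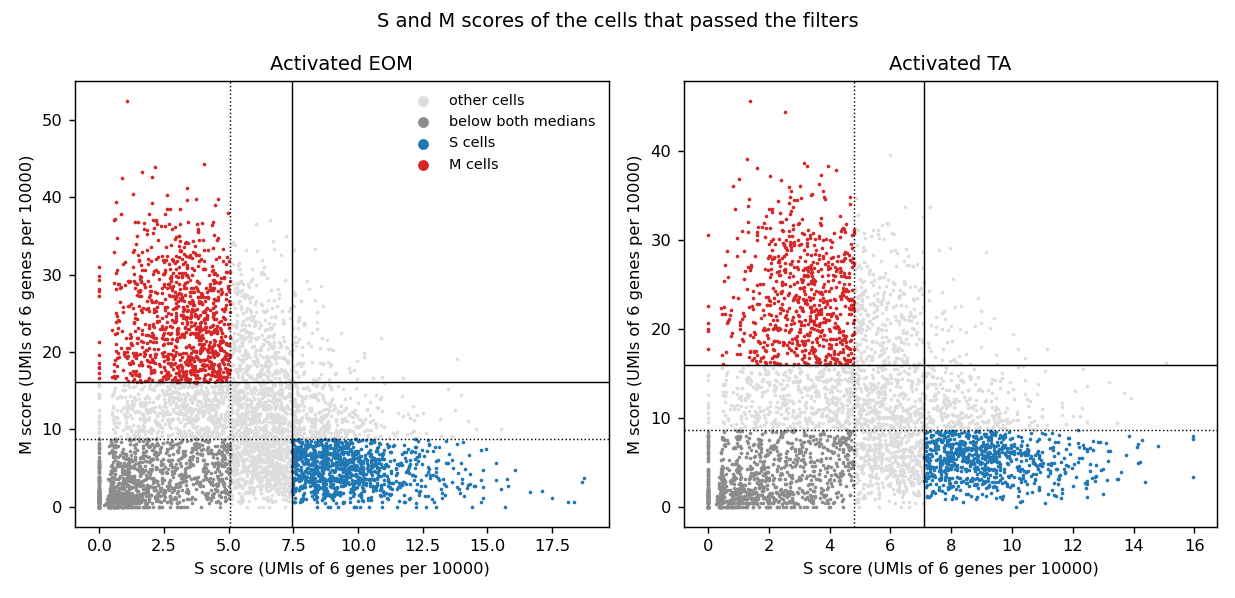
Each point is 1 eligible cell of activated EOM (left) or activated TA (right), with its S score on the horizontal axis and its M score on the vertical axis, both in UMIs of 6 genes per 10000. Solid lines are upper quartiles and dotted lines are medians; few cells lie at or above both upper quartiles (81 in EOM and 53 in TA), and the limits cut through continuous clouds.

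The limits for S cells were 7.45 in EOM and 7.11 in TA, and those for M cells were 16.05 and 15.95. The cells just inside and just outside the S limit of EOM scored 7.448 and 7.446, and those beside the M limit of TA 15.98 and 15.95. In EOM 18.6% of S cells and 13.6% of M cells lay within 10% above their limit, and in TA 19.1% and 13.4%. The classes are ranges of a continuous score, not cell types. Cells at or above both upper quartiles made up 1.39% of eligible cells in EOM and 1.20% in TA. In quiescent cells, measured the same way, the median M score was 0. None of 1535 EOM or 1609 TA cells reached the activated M limit. The upper exact 95% bounds on this share were 0.240% and 0.229%, and they cover the sampling of cells within each library only. The S limit was reached by 3.06% of quiescent cells in EOM and 1.80% in TA, at median depths of 5942 and 6214 UMIs.

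The rule's own genes are a description of the selection. Pcna, the sliding clamp of DNA polymerases, stood at 87.9 CPM (UMIs per 1000000 of the group's summed UMIs) in S cells and 31.9 in M cells of EOM, and at 94.2 and 31.9 in TA. Mcm5, a subunit of the replicative helicase, was at 152 and 49.6 in EOM and at 139 and 46.6 in TA. Ube2c, the ubiquitin-conjugating enzyme of the anaphase-promoting complex, was at 184 and 959 in EOM and at 204 and 994 in TA. Plk1, a kinase that drives mitotic entry and spindle assembly, was at 32.7 and 160 in EOM and at 25 and 142 in TA. All 4 markers sat on the side that the rule set, and Ube2c and Plk1 were still detected in S cells.

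The activated libraries held 144188957 and 118537060 UMIs and shared 12 barcodes. Summed UMIs were 23556318 over S and 25832653 over M cells of EOM, and 18902325 and 20478584 in TA. M cells were deeper, with a median of 24826 UMIs against 21909 in S cells of EOM and 28131 against 24044 in TA, while cells below both medians had 19801 and 22161. Thinned to 5000 UMIs, S and M cells had nearly the same number of detected genes (medians 1898 and 1910.5 in EOM, 1898 and 1912.5 in TA). The median mitochondrial share was between 6.02% and 6.12% in the 4 groups. Muscle identity held in both classes: the 6 muscle markers summed to between 1619 and 4032 CPM in them. Over S, M and both-low cells of the libraries, endothelial, immune, Schwann and erythroid lists summed to at most 3.50 CPM and the fibroblast list to between 4.69 and 26.9, with Ptprc, Lum, Hbb-bs and Tnmd at 0. The mural list reached 863 to 3617 CPM almost wholly through Acta2, which differentiating muscle also makes, and the tenocyte list 39.8 to 235 through Scx. Scx was 2.70-fold higher in M cells of EOM and 2.08-fold in TA, and the part of other cell types in the results was not tested.

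With 1 library per group and cells that are not replicates, no test was made between S and M cells. Ratios of summed UMIs carry exact 95% intervals for Poisson counts, which cover counting error only. Genes were counted by size, as at least 2-fold apart on the log2(CPM + 1) scale among genes reaching 20 CPM in at least the higher of the pair, and the 12 score genes were left out. In EOM 185 of 5400 genes (3.43%) were higher in M cells and 57 (1.06%) in S cells. In TA 118 of 5316 genes (2.22%) were higher in M cells and 58 (1.09%) in S cells. These shares include genes that vary with the scores by construction, and nothing is read from them. Counts of list members past the limit, given below, are to be set against these shares of all genes. The median log2 ratio over all genes was -0.007 in EOM and -0.012 in TA.

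The 2 libraries gave much the same picture side by side. Of the genes higher in M cells, 105 were so in both, which is 56.8% of the EOM genes and 89.0% of the TA genes. Of those higher in S cells, 46 were shared, 80.7% of the EOM and 79.3% of the TA genes. No gene was at least 2-fold apart in opposite directions, and every gene past the limit in 1 library lay on the same side of 0 in the other. The libraries share the selection rule, so this is a description and not a replicate test.

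**Figure D2:**
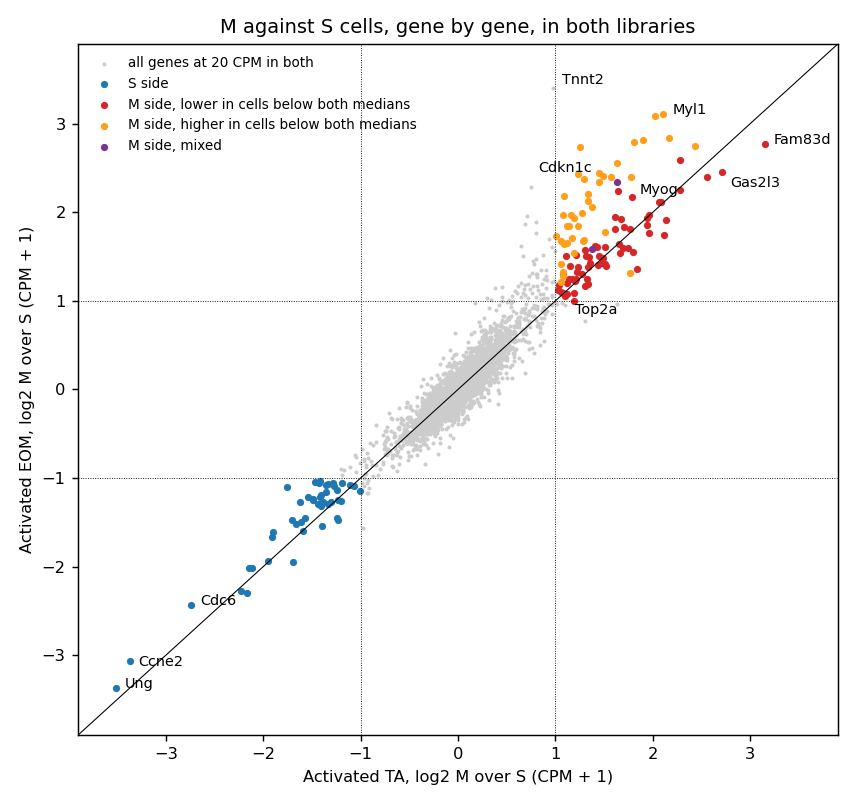
Each point is a gene with at least 20 CPM in both libraries, with its log2 M over S ratio in activated TA (horizontal) and activated EOM (vertical). Dotted lines are the 2-fold limits and the diagonal is equality; blue S-side genes lie along the diagonal, while the orange M-side genes that are higher still in cells below both medians lie above it, toward larger ratios in EOM, with the exception of Kdm5b.

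The largest ratios on the S side were those of Ung, Ccne2 and Cdc6, genes of the repair, G1 and licensing lists. Ung, the uracil-DNA glycosylase that clears uracil from newly made DNA, stood at 57.6 CPM in S cells and 4.68 in M cells of EOM, and at 56.7 and 4.05 in TA. That is 12.3-fold (95% interval 10.2 to 14.9) and 14.0-fold (11.2 to 17.7) higher in S cells, the largest ratios of that side in both muscles. Cells below both medians were at 9.55 and 8.0 CPM, so Ung was lower in M cells than in those cells. Ccne2, cyclin E2, which with CDK2 fires the G1 to S transition, was at 56.5 and 5.88 in EOM and at 73.1 and 6.15 in TA. Its relative Ccne1 was at 98.0 and 31.8 in EOM and at 146 and 47.7 in TA. Both E cyclins were thus at least 3-fold higher in S cells of each muscle.

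Of the origin licensing list, 5 of the 13 measured members in EOM and 5 of 14 in TA were higher in S cells and none in M cells, with median log2 ratios of -0.84 and -0.77 against about 0 for all genes. Cdc6, which loads the helicase onto origins, was at 48.5 and 8.17 CPM in S and M cells of EOM and at 55.4 and 7.42 in TA. Cdt1, its loading partner, which is destroyed once S phase begins, was at 55.3 and 25.3 in EOM and at 53.4 and 21.5 in TA. Mcm10, which helps the helicase start, was at 36.8 and 12 in EOM and at 35.6 and 12.8 in TA. Orc6, a subunit of the origin recognition complex, was at 188 and 88.2 in EOM and at 187 and 86.1 in TA. The S to M ratio in EOM was 5.94 for Cdc6, 2.18 for Cdt1 and 2.13 for Orc6.

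At the replication fork, 9 of 33 measured members in EOM and 9 of 32 in TA were higher in S cells and none in M cells (medians -0.62 and -0.63). Clspn, the claspin adaptor that links the fork to the checkpoint kinase CHK1, was at 109 CPM in S cells and 33.6 in M cells of EOM, and at 113 and 29.2 in TA. Rfc3, a subunit of the clamp loader that places PCNA on DNA, was at 98.7 and 34.9 in EOM and at 107 and 32.1 in TA. Rpa2, of the complex that coats single-stranded DNA, was at 78.4 and 31.9 in EOM and at 95 and 30.2 in TA. Of the 9 fork genes in each library 7 were the same, among them Wdhd1, Timeless, Dtl and Pold3. The nucleotide synthesis list had smaller ratios, with 1 of 22 members in EOM and 2 of 22 in TA past the limit, none of them in both, and medians of -0.39 and -0.43. Over all genes, 1.06% in EOM and 1.09% in TA were higher in S cells.

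Of the histone chaperone and chromatin copying list, 5 of 22 in EOM and 5 of 23 in TA were higher in S cells and none in M cells, with medians of -0.29 and -0.30. Of the histone variants and HMG proteins, which also package chromatin, none of 16 was past the limit in either library (medians -0.06 and -0.08). Hells, a remodelling helicase needed to keep DNA methylation, was at 184 CPM in S cells and 44.5 in M cells of EOM, and at 196 and 44.3 in TA. Chaf1b, a subunit of the CAF-1 chaperone that sets histones on new DNA, was at 62.1 and 15.4 in EOM and at 71.7 and 17.8 in TA. Uhrf1, which guides the maintenance methyltransferase to copied DNA, was at 122 and 51.1 in EOM and at 124 and 43.4 in TA. Atad2, a chromatin ATPase, was at 236 and 95.5 in EOM and at 216 and 79.1 in TA. The 5 members past the limit were the same genes in both libraries.

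Histone transcripts were mostly out of reach, as replication-dependent histone mRNAs largely lack the poly(A) tail that the assay captures. Only 8 of 61 histone genes in EOM and 7 in TA reached 20 CPM, of which 4 and 3 were higher in S cells. The linker histone gene Hist1h1b was at 354 CPM in S cells and 90.8 in M cells of EOM, and at 362 and 111 in TA. Hist1h1a was at 23.2 and 4.96 in EOM and at 24.5 and 4.74 in TA. Linker histone genes resemble each other, and how the counting assigned reads shared between them was not checked.

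Of the repair and checkpoint list, 5 of 18 measured members in each library were higher in S cells and none in M cells (medians -0.72 and -0.63). Besides Ung these were Msh6, a mismatch reader, Brca1 and Brip1 of homologous recombination, and the exonuclease Exo1. Msh6 was at 38.9 CPM in S cells and 7.08 in M cells of EOM, and at 37.6 and 7.57 in TA. Brca1 was at 35.1 and 11.6 in EOM and at 32.1 and 9.42 in TA, and Exo1 at 48.8 and 17.2 in EOM and 46.3 and 14.9 in TA. Mybl2 encodes B-MYB, a subunit of the MMB complex that turns on mitotic genes, and was listed with mitotic entry. Its transcript nevertheless was higher in S cells, at 33.2 against 11.3 CPM in EOM and 38.6 against 15.8 in TA.

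The G1 regulators split. Of their list, 4 of 23 in EOM and 4 of 22 in TA were higher in S cells: Ccne1, Ccne2, E2f1 and E2f7. E2f1, the activator of S phase genes, was at 48.5 and 21.2 CPM in EOM and 46.9 and 17.6 in TA, and E2f7, an E2F that represses, was at 23.4 and 9.48 in EOM and 20.4 and 6.98 in TA. The D cyclins and their kinase were close to level. Ccnd1 was at 206 CPM in S cells and 159 in M cells of EOM and at 272 and 236 in TA, Ccnd3 at 425 and 391 and at 330 and 336, and Cdk4 at 488 and 430 and at 467 and 437. Ccng2, an unconventional cyclin linked to cell cycle arrest, was higher in M cells, at 33.9 against 12.6 CPM in EOM and 25.5 against 6.40 in TA. Rb1, which restrains E2F, was at 34.0 in M cells and 15.2 in S cells of EOM, at least 2-fold apart, and at 28.6 and 18.7 in TA, which was under 2-fold.

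The M side was sorted into 2 kinds of gene by their level in cells below both medians. Those cells were chosen by the same scores, so a lower level there of genes that follow the M score is built into the selection. Of the 105 genes, 63 were lower in those cells than in M cells in both libraries, 40 were higher in both, and 2 (Sap30 and Rgs16) were mixed. The same split was not counted over all genes. In EOM 61 of the 105 were at least 2-fold lower and 27 at least 2-fold higher in those cells, and in TA the numbers were also 61 and 27. Of the 63 genes, 47 were on the spindle, kinetochore, passenger complex, mitotic entry, chromosome structure, anaphase-promoting complex or tubulin lists. The share of all measured genes on these lists together was not counted. Of the 40 genes, 13 were on the muscle differentiation and fusion list, which held 42 of 5400 measured genes in EOM and 42 of 5316 in TA. The 46 S-side genes were all lower in cells below both medians than in S cells, in both libraries. Both groups were chosen by the S score, so this describes the selection.

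**Figure D3:**
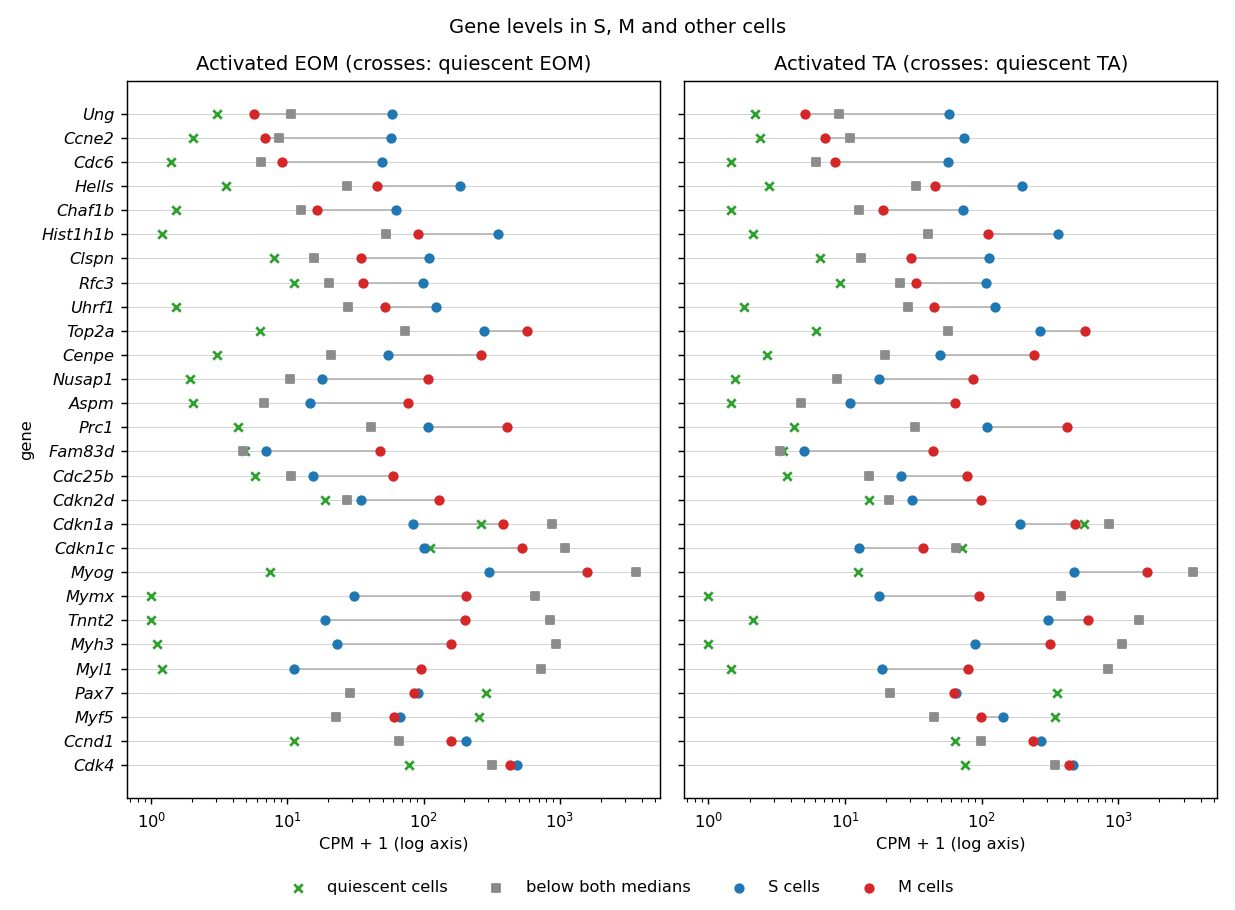
Levels of selected genes (rows) as CPM + 1 on a log axis in S cells (blue), M cells (red), cells below both medians (grey squares) and quiescent cells of the same muscle (green crosses), for EOM (left) and TA (right). From Top2a to Cdkn2d the M cells are highest of the 4 groups, while from Cdkn1a to Myl1 the grey squares lie to the right of the red points, and Pax7, Ccnd1 and Cdk4 differ little between S and M cells.

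Spindle genes made up the largest group of the mitotic kind by number, and the lists differed in length. Of the spindle and kinesin list, 19 of 35 members in each library were higher in M cells and none in S cells, with medians of 1.25 in EOM and 1.12 in TA. Fam83d, which brings casein kinase 1 to the spindle, was at 5.99 CPM in S cells and 46.6 in M cells of EOM, and at 3.97 and 43.2 in TA. That is 7.79-fold (6.54 to 9.35) and 10.9-fold (8.59 to 14.0) higher in M cells. Nusap1, a microtubule binder of the central spindle, was at 16.9 and 107 in EOM and at 16.8 and 85.5 in TA. Aspm, which focuses spindle poles, was at 13.6 and 76.1 in EOM and at 9.79 and 62.6 in TA, and the kinesin gene Kif14 was at 5.14 and 25.6 in EOM and at 4.02 and 20.2 in TA. In cells below both medians these 4 genes lay between 1.18 and 9.47 CPM, under their S cell levels in both muscles.

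After thinning every cell to 5000 UMIs, Nusap1 was seen in 39.0% of M cells of EOM (exact 95% interval 36.0 to 42.1), 7.22% of S cells (5.72 to 8.96) and 4.53% of cells below both medians (3.45 to 5.84). In TA the shares were 33.6%, 8.39% and 4.40%. The intervals cover the sampling of cells within a library only, not the spread between animals or libraries. Ung was seen in 23.3% of S cells of EOM, 2.94% of M cells and 5.17% of cells below both medians, and in 24.8%, 1.08% and 4.00% of those of TA. Without thinning these shares were higher in every group. No cell type lacking these genes was present in the activated libraries, so the share that free RNA gives was not measured there, and in quiescent cells Nusap1 was seen in 0.456% (EOM) and 0.249% (TA).

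Of the kinetochore and checkpoint list, 8 of 34 members in EOM and 8 of 35 in TA were higher in M cells and none in S cells. The share of all genes higher in M cells was 3.43% in EOM and 2.22% in TA. Cenpe, the kinesin that carries chromosomes to the spindle equator, was at 54.3 CPM in S cells and 263 in M cells of EOM, and at 48.7 and 240 in TA. Ndc80, the microtubule-binding core of the kinetochore, was at 21.4 and 61.7 in EOM and at 20.8 and 60.2 in TA. Medians of the list were lower than for the spindle (0.59 and 0.50), and most members were under 2-fold.

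In the passenger complex and cytokinesis list, 11 of 19 members in EOM and 10 of 20 in TA were higher in M cells, and 1 and 2 in S cells. Prc1, which bundles the microtubules of the midzone, was at 107 CPM in S cells and 413 in M cells of EOM and at 108 and 418 in TA. Depdc1a was at 16 and 73.1 in EOM and at 15.1 and 66.5 in TA. Kif23, a motor of the cleavage plane, was at 25 and 91.9 in EOM and at 27.7 and 92.1 in TA, and Ect2, which directs the contractile ring, at 32.3 and 98.1 in EOM and 38.4 and 96.4 in TA. Cdca7, a member of the list that is known as an E2F and MYC target and partner of HELLS, was on the other side, at 34.4 and 16.3 in EOM and 39.3 and 14.1 in TA, with Cdca7l past the limit in TA.

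Mitotic entry genes were mixed in size: 8 of 22 members in each library were higher in M cells and 1, Mybl2, in S cells (medians 0.60 and 0.64). Cdc25b, the phosphatase that first activates CDK1, was at 14.4 CPM in S cells and 58.3 in M cells of EOM, and at 24.5 and 76.9 in TA. Ccnf, cyclin F, was at 10.9 and 40.7 in EOM and at 12.7 and 40.9 in TA. Cks2, the small CDK-binding subunit, was at 242 and 632 in EOM and at 241 and 611 in TA. Top2a, the topoisomerase that untangles sister chromatids, was at 276 and 574 in EOM and at 267 and 572 in TA, 2.08-fold (2.02 to 2.14) and 2.14-fold (2.07 to 2.21). Top2a was well above cells below both medians in S cells as well (72.2 and 55.7 CPM there).

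Around the anaphase-promoting complex, 2 of 19 members were higher in M cells, the same in each library. Fzr1 encodes CDH1, the activator that takes over at mitotic exit, and was at 19.7 CPM in S cells and 68.5 in M cells of EOM and at 13.6 and 62.4 in TA. Arl6ip1, an endoplasmic reticulum protein, was at 209 and 612 in EOM and at 163 and 571 in TA. The medians of the list, 0.002 and 0.009, were close to those of all genes. Of the chromosome structure list, 3 of 22 in EOM (Top2a, Espl1 and Mki67) and 2 of 23 in TA (Top2a and Espl1) were higher in M cells and 1 in TA (Ncapg2) in S cells, with medians of 0.14 and 0.10. Of the 25 nuclear envelope genes measured, 2 in EOM (Lmnb2 and Syne1) and 1 in TA (Syne1) were higher in M cells, with medians of 0.01 and -0.05. Over all genes, 3.43% in EOM and 2.22% in TA were higher in M cells.

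**Figure D4:**
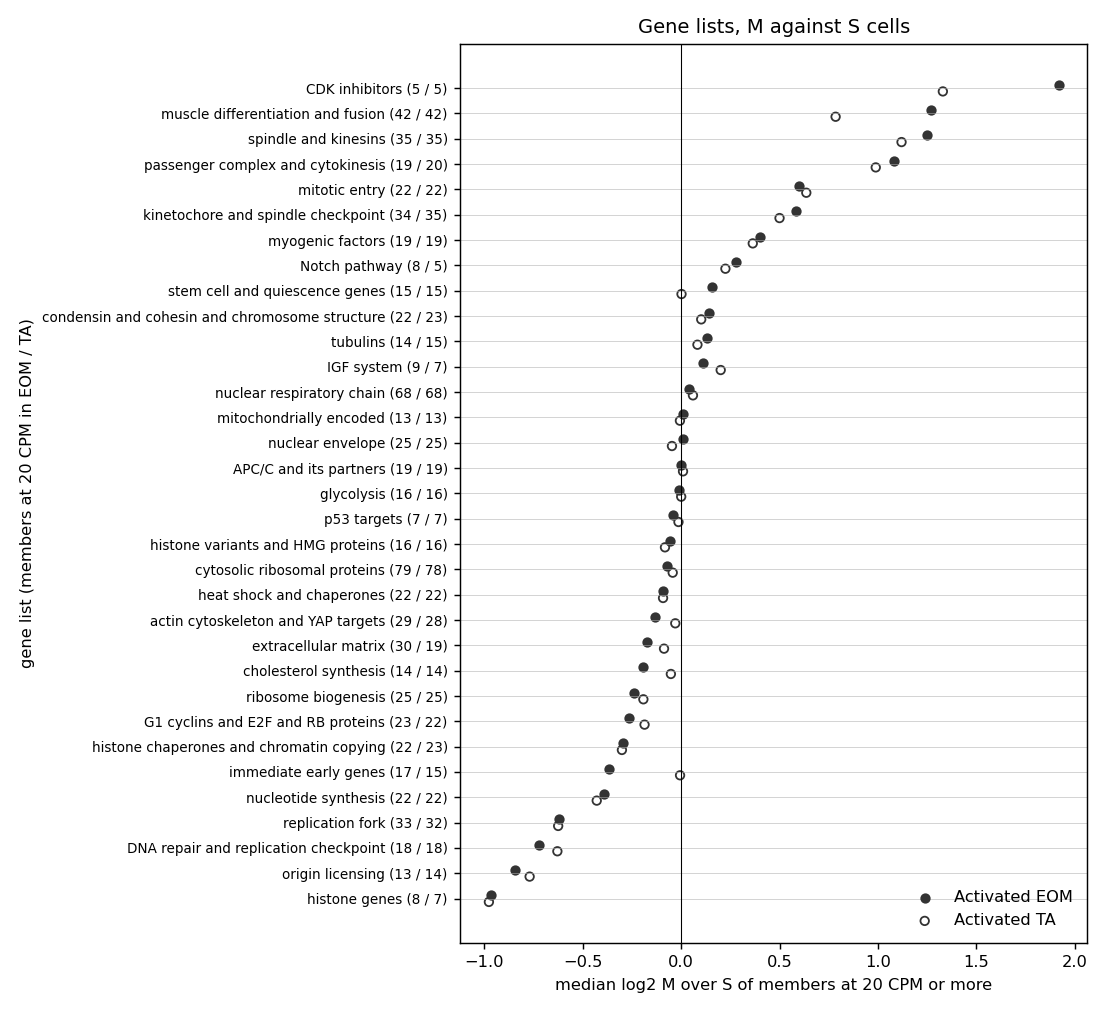
Median log2 M over S ratio of each gene list (rows) in activated EOM (filled) and activated TA (open), over members with at least 20 CPM in the higher group; the numbers beside each name are those members in EOM and TA. Replication lists lie left of 0, and spindle, kinetochore, cytokinesis, mitotic entry, CDK inhibitor and differentiation lists lie right of it. The anaphase-promoting complex, nuclear envelope, glycolysis, respiratory chain and ribosomal protein lists lie near 0. Ribosome biogenesis lies to its left (-0.24 and -0.19), as does cholesterol synthesis in EOM (-0.192, against -0.0522 in TA).

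CDK inhibitors had the highest list medians, 1.92 in EOM and 1.33 in TA over 5 measured members, 3 of which were higher in M cells in each library. They fell into the same 2 kinds. Cdkn1a, which encodes p21, was at 82.7 CPM in S cells, 384 in M cells and 878 in cells below both medians of EOM, and at 190, 480 and 857 in TA. Cdkn1c, which encodes p57, was at 99.0, 525 and 1091 in EOM and at 11.6, 36.4 and 64.0 in TA. Cdkn2d, which encodes p19 of the INK4 family, was instead highest in M cells, at 33.5, 129 and 26.3 in EOM and 30.0, 97.7 and 19.9 in TA. Cdkn1b (p27) and Cdkn2c (p18) were under 2-fold, with M to S ratios of 1.77 and 1.65 in EOM and 1.65 and 1.54 in TA, and were also lower in cells below both medians than in M cells.

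Muscle differentiation genes were the other kind on the M side. Of their list, 28 of 42 measured members in EOM and 14 of 42 in TA were higher in M cells and none in S cells, with medians of 1.27 and 0.79. Myog, the factor that commits myoblasts to differentiate, was at 303 CPM in S cells, 1597 in M cells and 3650 in cells below both medians of EOM, and at 475, 1627 and 3531 in TA. The M to S ratio was 5.27 (5.14 to 5.41) in EOM and 3.43 (3.35 to 3.51) in TA. M cells thus lay between S cells and cells below both medians in both muscles. Mymx and Mymk encode the proteins that fuse myoblasts. Mymx was at 29.8, 205 and 663 in EOM and at 16.7, 94.4 and 377 in TA, and was at 0 in quiescent cells of both muscles.

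Sarcomere genes followed the same order. Myl1, a myosin light chain, was at 10.1 CPM in S cells, 94.5 in M cells and 734 in cells below both medians of EOM, and at 17.6, 78.9 and 838 in TA. Actc1, cardiac actin, which immature muscle also makes, was at 99.8, 720 and 3491 in EOM and at 32.3, 149 and 1286 in TA. Myh3, embryonic myosin, was at 22.2, 159 and 934 in EOM and at 88.5, 313 and 1054 in TA. The M cell values lay above those of S cells and well below those of cells below both medians, for all 3 genes in both muscles. Reads shared between actin paralogs could move their values, which was not checked.

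The earlier myogenic factors differed less. Myod1 was at 345 CPM in S cells and 721 in M cells of EOM, a ratio of 2.09 (2.04 to 2.15), and at 884 and 1425 in TA, a ratio of 1.61. Pax7, the stem cell factor, was at 90.8 and 84.5 in EOM and at 64.0 and 61.3 in TA, and fell to 27.8 and 20.4 CPM in cells below both medians. Myf5 was at 65.7 and 59.2 in EOM and at 142 and 98.1 in TA. Mef2a and Mef2c were at least 2-fold higher in M cells of EOM (2.45-fold and 6.55-fold), and in TA Mef2c was not measured at 20 CPM and Mef2a was 1.88-fold. Id1, Id2 and Id3, which hold back MYOD1, had M to S ratios between 0.80 and 0.999 in both libraries. Dll1, a Notch ligand, was higher in M cells, at 31.5 against 6.2 CPM in EOM and 42.7 against 11.7 in TA.

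Counted over single cells, the median differentiation list took 118 UMIs per 10000 in S cells, 176 in M cells and 417 in cells below both medians of EOM, and 166, 234 and 448 in TA. M cells spread widely, with 1 in 10 above 393 in EOM and above 422 in TA. The median of the cells below both medians was reached by 7.55% of M cells and 0.0962% of S cells in EOM, and by 6.78% and 0.645% in TA. At 5000 UMIs per cell, a UMI of Myog, Mymk or Mymx was seen in 46.8% of S cells, 68.0% of M cells and 87.2% of cells below both medians of EOM, and in 63.6%, 85.2% and 93.8% in TA. In quiescent cells the share was 0.456% and 0.311%. Without thinning it was 81.7% of S cells and 92.5% of M cells in EOM, and 94.8% and 97.6% in TA.

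Part of the gap moved with the S score limit of the rule. Among all cells above the M limit of EOM, Myog was at 1597 CPM in those below the S median, 814 in those between the S median and upper quartile and 723 in those above both limits. In TA the values were 1627, 1035 and 456. Top2a stayed between 574 and 640 CPM across these groups in EOM and between 515 and 634 in TA. Every such group of EOM had more Myog than S cells (303 CPM), while in TA the 53 cells above both limits (456) lay just under the S cells (475). A further setting dropped the median limit on the other score but left out the cells above both limits. In that setting the differentiation list kept medians of 1.0 in EOM and 0.66 in TA.

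The 2 kinds differed in how they depended on the choice of cells. Their counts before matching also differed under some other settings in TA: with a mitochondrial share of at most 5%, 11 of the 40 genes and 55 of the 63 were at least 2-fold higher in M cells, and with scores from thinned cells 25 and 60. In EOM these were 27 and 59, and 40 and 57. S and M cells were then drawn to equal numbers in bins of differentiation UMIs per 10000 (640 of each in EOM, 505 in TA), a comparison chosen after the data had been seen. Their medians were then 127 and 128 UMIs per 10000 in EOM and 196 in both groups of TA. Of the 63 M-side genes lower in cells below both medians, 60 were still at least 2-fold higher in M cells of each library, with median log2 ratios of 1.53 and 1.47 against 1.51 and 1.45 before. Of the 40 genes higher in those cells, 2 in EOM and 3 in TA were, with medians of 0.27 and 0.47 against 1.98 and 1.28, and 37 in EOM and 38 in TA kept a smaller ratio on the M side. The 27 of these 40 that are not on the list used for matching went from medians of 1.85 and 1.23 to 0.34 and 0.48. All 40 were picked as higher in cells below both medians, the group richest in differentiation UMIs. Part of this fall was therefore built in, also for the 27. Kdm5b, a histone demethylase, and Smtn, a smooth muscle cytoskeletal gene, were the ones that stayed past 2-fold in both. Of the 46 S-side genes, 31 in EOM and 41 in TA stayed past the limit and all stayed on the S side.

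**Figure D5:**
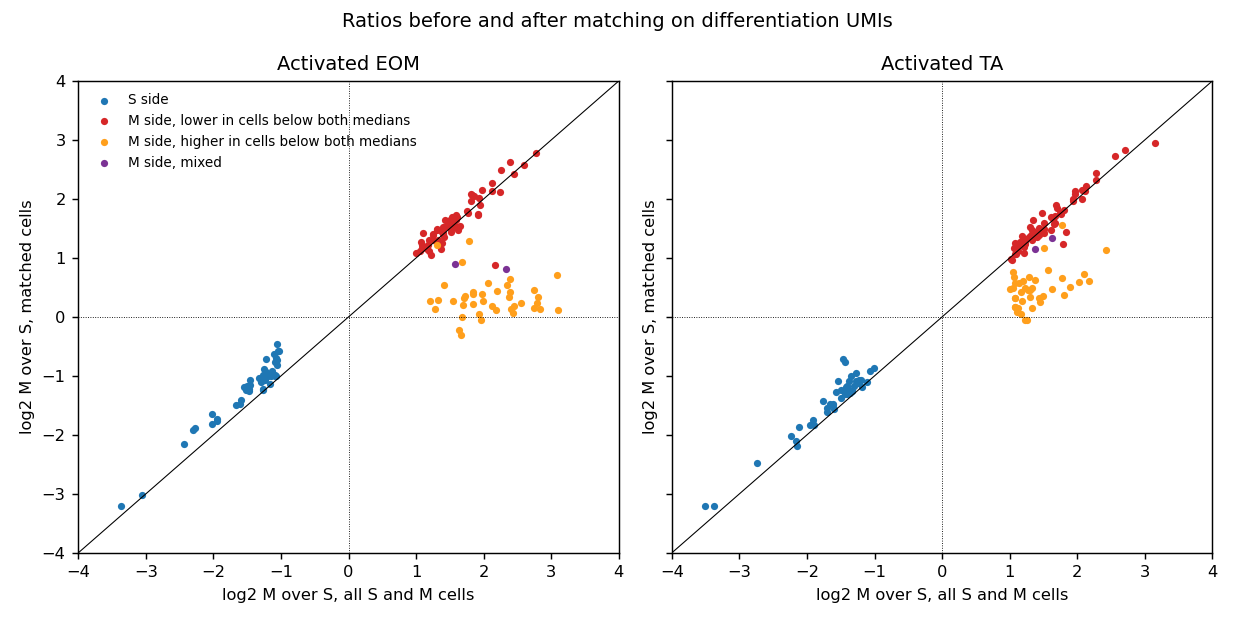
Each point is an M-side or S-side gene, with its log2 M over S ratio in all S and M cells (horizontal) and in cells matched on differentiation UMIs (vertical), in activated EOM (left) and activated TA (right). Red genes, lower in cells below both medians, lie along the diagonal, while orange genes, higher in those cells, lie well under it, mostly between 0 and the 2-fold limit (medians 0.27 in EOM and 0.47 in TA), and blue S-side genes stay below 0.

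After matching, Cdkn1a was at a log2 ratio of 0.45 in EOM and 0.49 in TA, from 2.20 and 1.33, and Cdkn1c at 0.65 and 0.80, from 2.39 and 1.57. Cdkn2d stayed at 1.75 and 1.59, Fzr1 at 1.80 and 2.14, and Ccng2 at 1.15 and 1.44. Dll1 was at 0.87 in EOM, under the limit, and at 1.24 in TA. Myog was at 0.42 and 0.67.

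The muscles differed in size of the differentiation gap. Of the 5079 genes with at least 20 CPM in both libraries, 10 had log2 ratios 1 or more apart between EOM and TA, and all 10 were larger in EOM. Tnnt2, a troponin T of immature muscle, was at 17.9 CPM in S cells and 199 in M cells of EOM, an 11.1-fold gap (10.1 to 12.3), and at 306 and 603 in TA, a 1.97-fold gap (1.91 to 2.03). Acta1, skeletal actin, was at 170 and 831 in EOM and at 1774 and 2978 in TA. Tnni1 was at 24.6 and 170 in EOM and at 103 and 247 in TA, and Tnnc1 at 42.4 and 234 in EOM and 237 and 559 in TA. In each of these the S cells of EOM were far below the S cells of TA, by more than the M cells were. With 1 library per muscle, the muscle and the library cannot be told apart.

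The promoter words differed in frequency between the sides. Promoters in the table matched 37 of the 46 S-side genes and 84 of the 105 M-side genes, of which 52 were among the 63 and 30 among the 40. Windows here are the whole 300 bases, from 250 before to 50 after the start. An E2F word was in 54.1% of S-side promoters (20 of 37) and 5.95% of M-side promoters, against 12.7% of the 4048 promoters of genes with 20 CPM in both libraries and 5.98% of all 27025 in the table. The CHR word was in 63.5% of the promoters of the 63 genes (33 of 52), 13.3% of those of the 40 genes (4 of 30) and 2.70% of S-side promoters (1 of 37), against 14.8% and 20.2%. CCAAT was in 80.8%, 40% and 48.6%, against 43.2% and 41.1%, and CHR and CCAAT together in 50%, 10% and 0%, against 6.62% and 7.97%. The E-box CAGCTG was in 13.5% of the promoters of the 63 genes, 46.7% of those of the 40 and 10.8% of those of the S side, against 15% and 18.3%. A match is a run of letters and not a bound site, and base composition was not matched between the sets.

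Among the remaining lists, cytosolic ribosomal proteins (79 and 78 measured), mitochondrially encoded genes (13), the nuclear respiratory chain (68) and heat shock genes (22) had no member 2-fold apart in either library and medians between -0.09 and 0.06. Ribosome biogenesis genes had none past the limit and medians of -0.24 and -0.19. The extracellular matrix list had none of 30 and none of 19. Of the immediate early list, 3 of 17 in EOM (Egr1, Ier2 and Ier3) and 2 of 15 in TA (Egr1 and Myc) were higher in S cells, and Gadd45a was higher in M cells of EOM, with medians of -0.36 and -0.01. Egr1, an early response transcription factor gene, was at 133 against 56.5 CPM in EOM and 34.5 against 11.2 in TA. Cyr61, of the actin and YAP list, was at 219 against 91.7 in EOM and 201 against 85.0 in TA. Egr1 stood at 1099 and 718 CPM in the quiescent libraries of EOM and TA, and the part of cell handling in its level was not tested.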

How the data were processed

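The deposited values are unnormalised UMI counts for each gene in each barcode. Per the submitters' processing notes, Cell Ranger 3.0.2 and mm10 were used, while the sources used here state neither annotation release nor cell-calling rule. Cells were kept and classed as described in the Results. UMIs were summed over the cells of a class and scaled to CPM. The log2 ratio used a pseudocount of 1 CPM. Intervals were exact (Clopper-Pearson) at 95%, and those of shares cover the sampling of cells within a library only. Shares of cells used counts thinned to 5000 UMIs, with the unthinned share as an alternative. Named genes were the 12 largest and 12 smallest mean log2 ratios of the libraries at 50 CPM or more in the higher group, up to 4 members per list and direction past 2-fold in both libraries, and the myogenic, CDK inhibitor and G1 lists, and others were named after their values were seen. The members, the 31 gene lists and the 8 marker lists were chosen with earlier results of these data known. The E-box word was added after the data had been seen. Doublets were not removed. Scrublet, in Scanpy 1.11.5, called 2 and 3 by threshold and so did not work, and removal by rank at 0.8% per 1000 barcodes was an alternative. The ratio and interval steps were tested on simulated Poisson counts, the model that the interval assumes. The simulation had no variation between cells or libraries, so it checked the computation only. Python 3.11.15, NumPy 2.4.6, SciPy 1.17.1 and, for TMM factors, edgeR 4.0.16 were used. Promoters are from RefSeq on GRCm38.p6, the assembly that mm10 names.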

Additional observations from a re-analysis of the deposited data

How the results depend on the processing

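The 4 counts of genes at least 2-fold apart were recomputed under 20 settings each, and 59 of 80 values stayed within 1.5 times the value reported. For genes higher in M cells of EOM (185), the others were 298 at a filter of 5 CPM, 352 with no filter, 377 at a fold limit of 1.5, 89 without cells carrying a UMI of Myog, Mymk or Mymx, 76 among cells in the lower 50% by differentiation UMIs and 79 in cells matched on those UMIs. For genes higher in S cells of EOM (57) they were 96 with no filter, 172 at a fold of 1.5 and 30 without Myog, Mymk or Mymx cells. They were also 36 without the median limit on the other score, 29 in the lower 50% and 37 after matching. In TA, genes higher in M cells (118) numbered 202 with no filter, 270 at a fold of 1.5, 323 without Myog, Mymk or Mymx cells, 67 in the lower 50% and 74 after matching. Those higher in S cells (58) numbered 93 at 5 CPM, 104 with no filter, 153 at a fold of 1.5 and 195 without Myog, Mymk or Mymx cells. The last setting left 190 S and 77 M cells in EOM and 40 and 18 in TA, so its TA counts rest on few UMIs. The settings without the median limit on the other score, the lower 50% and the matching were chosen after seeing the data. Sign changes were counted only for list medians clear of 0 on both sides and for named genes past 2-fold as reported. Of 1240 list medians under the 20 settings, 17 moved by more than 1.5-fold and 3 changed sign in this way. Those 3 were all of the extracellular matrix list in EOM: 0.171 without Myog, Mymk or Mymx cells, 0.266 in the lower 50% and 0.193 after matching. Of 4200 values of named genes, 2897 were counted as the same and 1278 as moved from the value reported without such a sign change. The other 25 changed sign, all in the same 3 settings, and the cause was not tested. Without Myog, Mymk or Mymx cells, log2 ratios in EOM were -0.4114 for Klhl41, -0.07052 for Mybph, -0.3957 for Myh3, -1.03 for Myl1, -0.007859 for Myod1, -0.4166 for Rb1, -0.5273 for Tnni1 and -0.103 for Tnnt2, and in TA -1.695 for Cdkn1c, -0.1329 for Pgam2 and -0.5165 for Rgs16. In the lower 50%, they were in EOM -0.162 for Actc1, -0.04598 for Hes6, -0.1074 for Mybph, -0.1663 for Myh3, -0.5084 for Myl1, -0.1457 for Myog, -0.4943 for Pgam2, -0.3091 for Rb1, -0.2233 for Rgs16, -0.1381 for Tnni1 and -0.5553 for Tnnt2, and in TA -0.1165 for Myl1. After matching they were -0.2636 for Rb1 in EOM and -0.04991 for Tnni1 in TA. Shares of cells depend on depth, as 142 of 144 moved beyond their exact interval without thinning. With 1 library per group, no replicate could be left out.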

Other observations

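Of the 151 genes past the limit in both libraries, 49 were on none of the lists, and those named here were chosen after their values were seen. On the S side were Slfn9, a Schlafen family gene, at 46.9 CPM in S cells and 8.90 in M cells of EOM and at 44.3 and 8.64 in TA, and Fam111a, a protease that acts at replication forks, at 77.2 and 31.5 in EOM and at 60.3 and 22.5 in TA. Gal, which encodes the neuropeptide galanin, was at 134 and 64.2 in EOM and at 70.9 and 24.9 in TA.

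On the M side, Gas2l3, a linker of actin and microtubules, was at 7.22 CPM in S cells, 43.9 in M cells and 3.87 in cells below both medians of EOM, and at 5.24, 39.7 and 3.09 in TA. Fzd2, a Wnt receptor, was at 44.5, 105 and 80 in EOM and at 28.5, 66.9 and 50 in TA. Svbp, the partner of the enzymes that remove the last tyrosine of tubulin, was at 158, 511 and 1059 in EOM and at 166, 409 and 848 in TA. Mycl, a MYC family factor, was at 24.4, 73.1 and 80.1 in EOM and at 31.5, 73.4 and 75.1 in TA. Kdm5b, which stayed past 2-fold after matching, was at 10.4, 27.2 and 38.7 in EOM and at 7.78, 28.9 and 37.9 in TA.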
